A study of Mus musculus with 6 samples.

Results

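The 10 genes described here take up, export, store or sense iron or break down haem, and were picked by symbol from the 24452 rows that each library's file holds. They are Slc11a2, Cybrd1, Slc40a1, Heph, Tfrc, Fth1, Ftl1, Hmox1, Ireb2 and Epas1, and all 10 were found. Their transcripts were measured by polyA RNA-seq in small intestine of C57BL/6 mice at postnatal day 14, before weaning. There were 3 libraries labelled Erk1/2 -/-, called labelled knockout here, and 3 labelled wild type. The labels name no driver or cell type for the deletion and do not say which stretch of the small intestine was taken. They do not tie libraries to individual mice, so the p-values reflect only how much these libraries vary, which may be technical. Going by its title, the series concerns negative feedback by the kinases ERK1 and ERK2 in the postnatal gut.

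Dietary iron enters the body through the enterocytes of the proximal small intestine. A ferric reductase of the brush border, DCYTB (Cybrd1), supplies ferrous iron to the importer DMT1 (Slc11a2), ferroportin (Slc40a1) exports it at the other side of the cell, and the copper enzyme hephaestin (Heph) oxidises it for binding to transferrin. Iron that stays in the cell is held by ferritin, a shell of heavy (Fth1) and light (Ftl1) chains. Iron regulatory proteins, of which IRP2 (Ireb2) is one, bind a hairpin called the iron-responsive element when iron is scarce. In a 5′ untranslated region this blocks translation, and in the 3′ untranslated region of the transferrin receptor (Tfrc) it protects the transcript from decay. HIF-2α (Epas1) raises transcription of Cybrd1, Slc11a2 and Slc40a1 in the gut of mice when oxygen or iron is low.

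The sites below are those where the letters of the canonical iron-responsive element were found in the members, and show where in the transcript they lie. A C, then 5 bases, the loop CAGTGN and 5 more bases were searched, where the 5 bases on either side of the loop had to pair at 4 or more positions, counting G with T as a pair. The search covered the sense strand of the untranslated regions of annotated protein-coding transcripts (GENCODE M21, GRCm38). Each site is given 5′ to 3′ as DNA, with the loop in capitals.
Fth1, 5′ untranslated region, chr19:9982732-9982761, plus strand: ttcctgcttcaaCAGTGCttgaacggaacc
Ftl1, 5′ untranslated region, chr7:45459778-45459807, minus strand: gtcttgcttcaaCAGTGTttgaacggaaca
Slc40a1, 5′ untranslated region, chr1:45925464-45925493, minus strand: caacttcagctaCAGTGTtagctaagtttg
Slc11a2, 3′ untranslated region, chr15:100395152-100395181, minus strand: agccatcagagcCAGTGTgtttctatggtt
Tfrc, 3′ untranslated region, first match, chr16:32631219-32631248, plus strand: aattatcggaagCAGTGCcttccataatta
Tfrc, 3′ untranslated region, last match, chr16:32631710-32631739, plus strand: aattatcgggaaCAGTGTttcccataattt
Tfrc held 4 matches in all, each with all 5 pairs, as had the sites of Fth1, Ftl1 and Slc40a1. The Slc11a2 site had 4 pairs and lay in 1 of its annotated transcripts, and the files do not separate transcripts of a gene. At 4 or more pairs, 0.981% of 20899 genes had a match in a 5′ untranslated region and 4.02% of 21685 genes had one in a 3′ untranslated region. A match is a description of the letters, and the search is not a test of binding. The pattern is strict and misses variants of the hairpin, such as the one known in the 5′ untranslated region of human EPAS1, so a member without a match is not shown to lack the element.

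No difference was detected in Mapk3, which encodes ERK1. It had normalised counts of 3363, 2280 and 2734 in labelled knockout 1 to 3 and of 3142, 2788 and 2004 in wild type 1 to 3 (log2 fold change 0.09 ± 0.22 SE, limma adjusted p = 0.819). Library-total scaling turned this sign, to -0.09, as did leaving out labelled knockout 1 (-0.06), wild type 3 (-0.10) or both (-0.24, limma adjusted p = 0.216). The deposited values are per gene, so the level of a deleted exon cannot be read from them, and every direction below is that of the labels. Normalised counts are the deposited values, whole numbers that bear the marks of read counts scaled per library, and they summed to 14825845 to 17153570 in the labelled knockout libraries and to 13641468 to 14094100 in the wild type libraries. Markers of enterocytes were abundant throughout, with a summed level of 398660 to 569178 in the labelled knockout libraries and of 384483 to 507244 in the wild type libraries. Apoa1, an apolipoprotein, was the largest item in each of these sums, and the members did not move as one: Lct, encoding lactase, fell (-1.23 ± 0.28, limma adjusted p = 0.0446), while Cdh17, Vil1 and Epcam were higher without overlap and did not pass. The libraries of the genotypes did not overlap for 37.6% of all genes tested either, so that lack of overlap is common here. Pancreas markers summed to 7607, 4658 and 71 in labelled knockout 1 to 3 and to 33619, 2061 and 2320 in wild type 1 to 3. Nearly all of the sum in labelled knockout 1 was Ctrb1, at 7600. Liver markers summed to 134 to 2545 in labelled knockout and to 455 to 1023 in wild type, with Alb at 6 or less in every library. Most of each liver sum was Ttr, at 2523 in labelled knockout 1. Smooth muscle markers summed to 27302 to 38680 in labelled knockout and to 35050 to 50521 in wild type.

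Labelled knockout 1 and wild type 3 stood apart from the other 4 libraries, across the genotypes, in genes that differ along the length of the gut. Pdx1, a transcription factor of the duodenum, was at 14, 718 and 682 in labelled knockout 1 to 3 and at 453, 343 and 3 in wild type 1 to 3. Onecut2, another proximal factor, was at 75, 2560 and 2216 in labelled knockout 1 to 3 and at 1835, 1960 and 200 in wild type 1 to 3. Both of the libraries that stood apart were below the other 4 in 4 of 7 proximal markers (Pdx1, Onecut2, Gata4 and S100g) and above them in 4 of 5 ileal markers, among them Fgf15, a bile acid-induced hormone of the ileum. Ada, Fabp1 and Otc, also on the proximal list, did not separate them. Of the ileal markers counted, Fabp6 was at 1947 in labelled knockout 1 but at only 4 in wild type 3, and at 3 or less in the others. Slc51b was at 368 in wild type 3, close to the 330 of labelled knockout 2. The proximal list summed to 73893 to 115361 in labelled knockout and to 27412 to 44254 in wild type, mostly Fabp1 and Ada, and the ileal list to 2517 to 10244 in labelled knockout and to 2872 to 7658 in wild type. Each of the 10 iron genes is therefore given with and without these libraries, and the related lists by their counts of calls both ways. Leaving both out leaves 2 libraries per genotype, a choice made from measured levels and not from the labels.

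None of the 10 iron genes passed the test of labelled knockout against wild type over all 6 libraries. The lowest limma adjusted p among them was 0.204, none had an unadjusted p under 0.05, and 5 had a positive and 5 a negative log2 fold change, with a median of 0.05. Over all 14686 genes tested, 1291 passed, which is 8.79%, with 4.85% higher and 3.94% lower in labelled knockout, and the median log2 fold change was -0.01. The 3 libraries of each genotype overlapped for all 10 genes, while they did not overlap for 37.6% of all genes tested. All 10 passed the filter on low values. The intervals of the fold changes were wide for most members, so differences of a size that passed for other genes cannot be set aside.

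**Figure D1:**
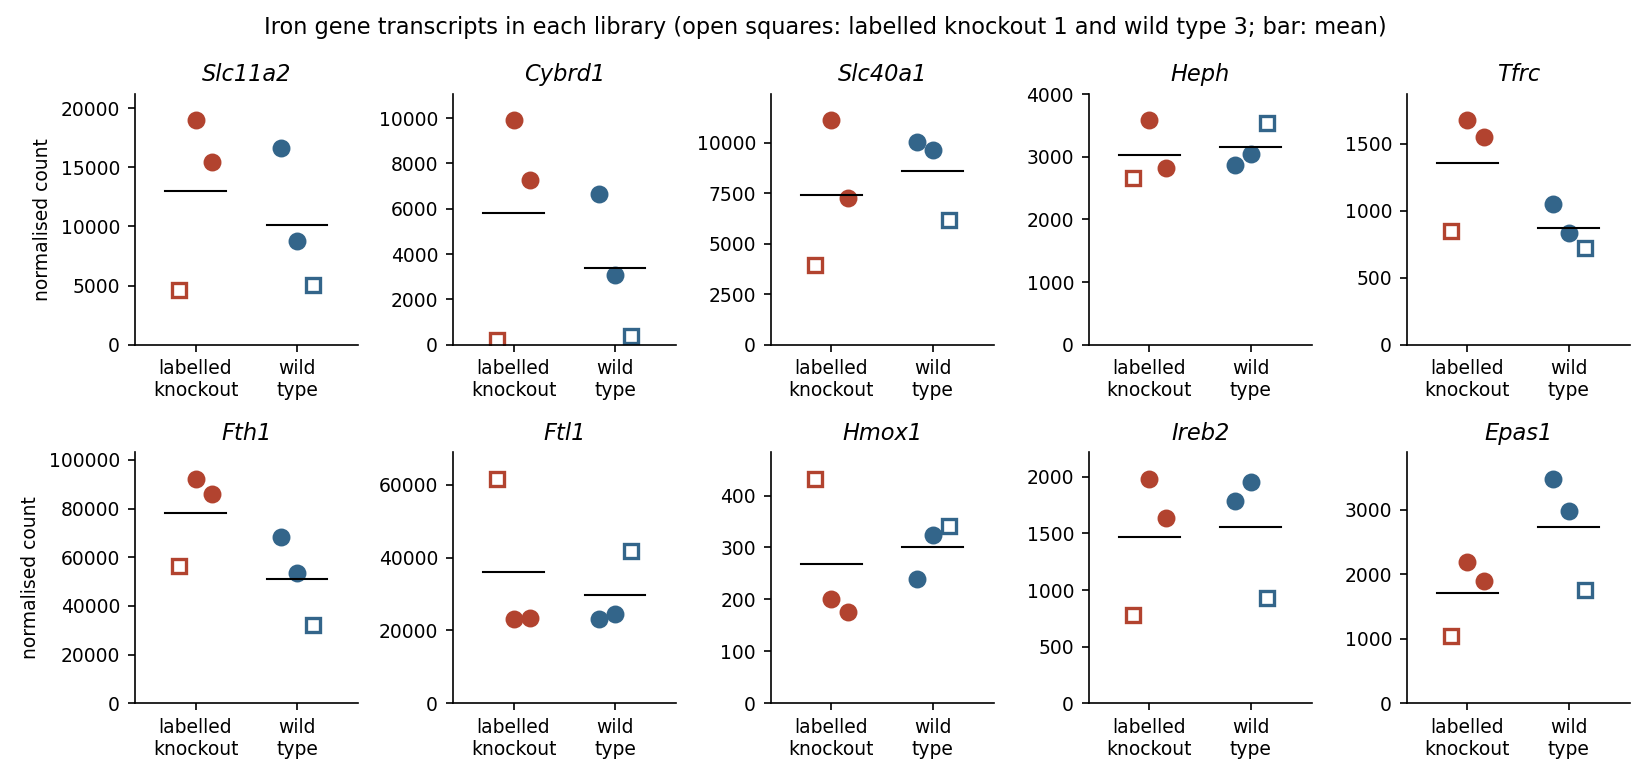
Normalised counts of the 10 iron genes in each library, on linear axes from 0, with labelled knockout left of wild type and a bar at the mean of 3 libraries. Open squares are labelled knockout 1 and wild type 3, which lie below the other 4 libraries for Slc11a2, Cybrd1, Slc40a1, Ireb2 and Epas1 and above them for Ftl1 and Hmox1.

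The clearest pattern in these genes followed the pair of libraries that stood apart, not the labels. In 5 of the 10 genes (Slc11a2, Cybrd1, Slc40a1, Ireb2 and Epas1) both of these libraries were below all others, which was the case for 10.4% of all genes tested. In 2 of the 10 (Ftl1 and Hmox1) both were above all others, as in 10.8% of all genes tested. Heph, Tfrc and Fth1 showed neither. These shares are a description, since the libraries were singled out by their levels.

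**Figure D2:**
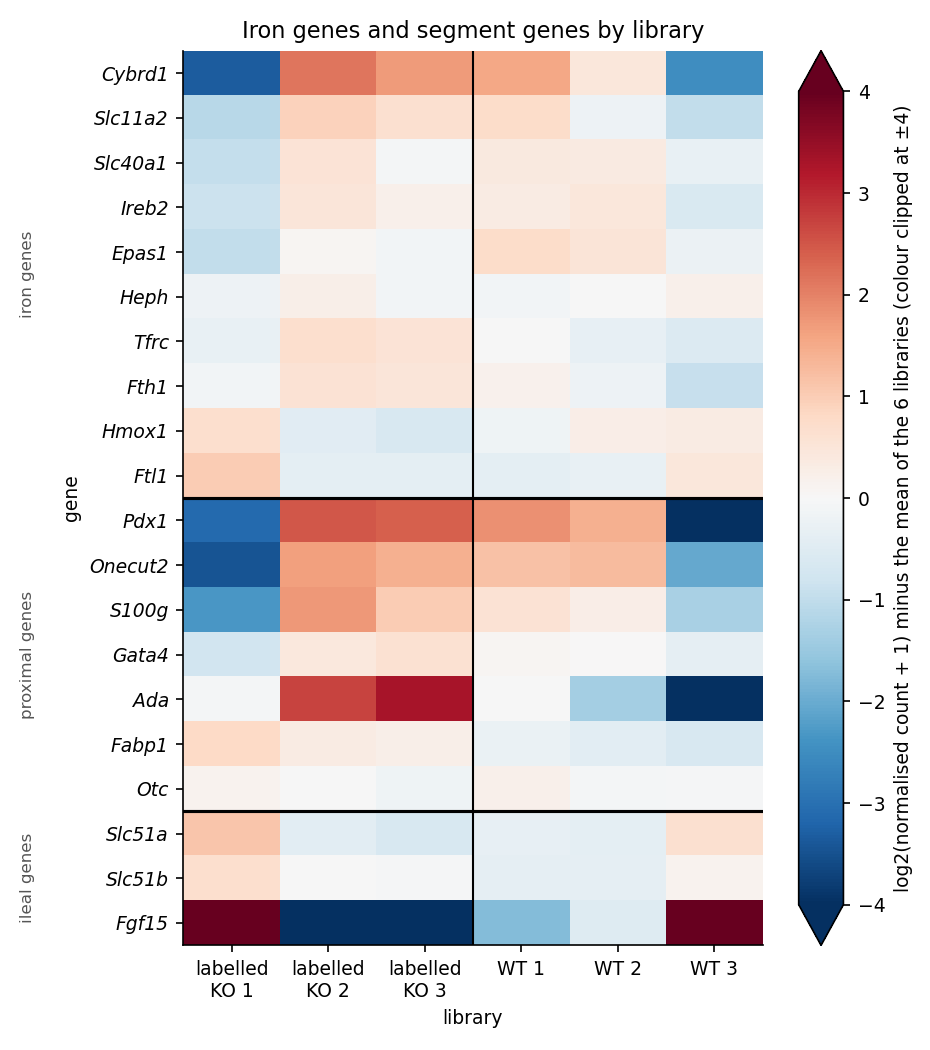
Level of each iron gene, of 7 proximal intestine genes and of 3 ileal genes that passed the filter in each library, as log2(normalised count + 1) minus the mean of the 6 libraries, with the colour clipped at 4 in either direction. Labelled knockout 1 and wild type 3 are low for Cybrd1, Slc11a2, Slc40a1, Ireb2, Epas1, Pdx1 and Onecut2 and high for Ftl1, Hmox1, Slc51a and Fgf15.

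The uptake genes varied most. Cybrd1 (chromosome 2, 71117923 to 71142926, plus strand, GRCm38 like all positions here) had normalised counts of 224, 9894 and 7285 in labelled knockout 1 to 3 and of 6634, 3087 and 402 in wild type 1 to 3. Its highest library was 44.0-fold above its lowest, a wider range than in 99.3% of the genes tested, and labelled knockout 1 and wild type 3 held the 2 lowest values. The means were 5801 ± 5003 in labelled knockout and 3374 ± 3126 in wild type (SD, n = 3 each). The log2 fold change was 0.33 ± 1.61 (SE, limma adjusted p = 0.906), and its 95% interval reached from 0.0891-fold to 17.6-fold, so at this spread neither a large rise nor a large fall could be told from no change. The sign depended on single libraries, running from -0.84 when wild type 3 was left out to 2.07 when labelled knockout 1 was. It was also negative when labelled knockout 2 (-0.66) or labelled knockout 3 (-0.44) was left out. Over the other 4 libraries it was 0.91 ± 0.34 (limma adjusted p = 0.0915).

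Slc11a2 (chromosome 15, 100387898 to 100425072, minus strand) had 4634, 18971 and 15464 in labelled knockout 1 to 3 and 16646, 8765 and 5046 in wild type 1 to 3. Again the lowest library of each genotype was one of those that stood apart. The log2 fold change was 0.29 ± 0.62 (limma adjusted p = 0.774), with a 95% interval of 0.441-fold to 3.41-fold. It turned negative without labelled knockout 2, at -0.09, and without wild type 3, at -0.13. Over the other 4 libraries it was 0.50 ± 0.29 (limma adjusted p = 0.234). Gm5475, whose exons overlap those of Slc11a2 on the other strand, had at most 54 normalised counts in any library.

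The export genes differed less. Slc40a1 (chromosome 1, 45908068 to 45926523, minus strand), encoding ferroportin, had 3954, 11108 and 7250 in labelled knockout 1 to 3 and 10016, 9624 and 6181 in wild type 1 to 3, and its log2 fold change was -0.30 ± 0.39 (limma adjusted p = 0.632). Its 95% interval was 0.429-fold to 1.54-fold, and the sign was positive without labelled knockout 1, at 0.09. Over the other 4 libraries it was -0.13 ± 0.20 (limma adjusted p = 0.664). Ferroportin is also made by macrophages that recycle iron, and the 10 macrophage markers summed to 8927, 4428 and 4162 in labelled knockout 1 to 3 and to 5268, 6215 and 7719 in wild type 1 to 3, high where Slc40a1 was low. Of the 9 tested, 1 fell, Adgre1 (-0.96, limma adjusted p = 0.0462, and up to 0.201 when 1 library was left out), beside 3.94% of all genes tested. So short a list cannot be set against that share. The median of the 9 was -0.10, and Csf1r made up most of the sum where the sum was high. Without Csf1r the sums were 4122, 2871 and 3047 in labelled knockout 1 to 3 and 3244, 3730 and 3283 in wild type 1 to 3, and wild type 3 no longer stood out. Heph (chromosome X, 96455359 to 96574485, plus strand) was the steadiest member. It had 2662, 3579 and 2823 in labelled knockout 1 to 3 and 2867, 3036 and 3543 in wild type 1 to 3, so that its highest library was 1.34-fold above its lowest, a range that only 9.81% of the genes tested fell short of. Its log2 fold change was -0.07 ± 0.17 (limma adjusted p = 0.814), with a 95% interval of 0.725-fold to 1.26-fold. The sign of this small difference was positive without labelled knockout 1 (0.02), without wild type 3 (0.02) and without both (0.11). The libraries with the least Cybrd1 thus held the lowest Heph value, 2662, and one of the highest, 3543.

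Tfrc (chromosome 16, 32608920 to 32632794, plus strand), the receptor by which cells take up transferrin-bound iron and the member with several 3′ iron-responsive elements, had 851, 1673 and 1551 in labelled knockout 1 to 3 and 1046, 835 and 723 in wild type 1 to 3. Labelled knockout 2 and 3 were the highest, and labelled knockout 1 lay within the wild type range. The means were 1358 ± 444 in labelled knockout and 868 ± 164 in wild type (SD, n = 3 each), and the log2 fold change of 0.60 ± 0.29 did not pass (limma adjusted p = 0.204, 95% interval 0.951-fold to 2.42-fold). Over the 4 libraries without labelled knockout 1 and wild type 3 it passed, at 0.79 ± 0.14, which is 1.72-fold (limma adjusted p = 0.0103). In that fit 5 of 7 proximal markers were also higher, beside 14.3% of all genes. Within the pair that stood apart, labelled knockout 1 had 851 and wild type 3 had 723. Leaving out labelled knockout 1 alone also gave a call, at 0.91 ± 0.17 (limma adjusted p = 0.0191). Red cell precursors are rich in the receptor, and the 7 erythroid markers summed to 210, 208 and 153 in labelled knockout 1 to 3 and to 95, 95 and 98 in wild type 1 to 3. Among them Alas2, the haem synthesis enzyme of red cells, was at 170, 141 and 109 in labelled knockout 1 to 3 and at 45, 46 and 45 in wild type 1 to 3, higher by 1.58 ± 0.21 in log2 terms (limma adjusted p = 0.0139). The Alas2 call was lost without labelled knockout 3, wild type 1 or wild type 2 (limma adjusted p = 0.0538, 0.0687 and 0.0909). The part of this in the Tfrc values was not tested.

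The ferritin genes were by far the most abundant members, and their balance differed between libraries. Fth1 (chromosome 19, 9980598 to 9985098, plus strand) had 56214, 92170 and 86082 in labelled knockout 1 to 3 and 68171, 53518 and 31941 in wild type 1 to 3, with 2 labelled knockout libraries above all others. Its log2 fold change was 0.65 ± 0.35 (limma adjusted p = 0.251, 95% interval 0.888-fold to 2.76-fold), and over the other 4 libraries 0.56 ± 0.20 (limma adjusted p = 0.0823). Ftl1 (chromosome 7, 45457944 to 45459884, minus strand) had 61642, 23154 and 23351 in labelled knockout 1 to 3 and 23007, 24633 and 41745 in wild type 1 to 3. The 4 libraries other than labelled knockout 1 and wild type 3 thus lay within a narrow band, and those 2 stood well above it. Its log2 fold change was 0.16 ± 0.44 (limma adjusted p = 0.822, 95% interval 0.546-fold to 2.30-fold) over all libraries. Over the other 4 it was -0.03 ± 0.14, and it was -0.30 without labelled knockout 1. Per base of transcript, Fth1 was 0.950, 4.15 and 3.84 times as abundant as Ftl1 in labelled knockout 1 to 3, and 3.09, 2.26 and 0.797 times as abundant in wild type 1 to 3. By these lengths the light chain was in excess in the 2 libraries that stood apart, and a difference between the genotypes was not detected (mean log2 difference 0.48, exact permutation test, two-sided p = 0.50, n = 3 each, where 0.1 is the smallest p possible). The transcript lengths come from a rule that was changed after the values were seen. Under the first rule, whose Fth1 transcript had 1494 in place of 929 bases, the ratio was 0.591, 2.58 and 2.39 in labelled knockout 1 to 3 and 1.92, 1.41 and 0.496 in wild type 1 to 3, below 1 in the same libraries. By the length of all annotated exons, 3469 bases for Fth1 and 1340 for Ftl1, it was 0.352, 1.54 and 1.42 in labelled knockout 1 to 3 and 1.14, 0.839 and 0.296 in wild type 1 to 3, so that wild type 2 was below 1 too. The 2 libraries that stood apart had the lowest ratio of their genotype by each rule, and whether a chain was in excess depended on the rule. Both ferritin genes have processed copies elsewhere in the mouse genome, and an annotated microRNA gene and an unclassified gene overlap exons of Ftl1. These levels are uncertain to that extent, since the treatment of reads that match several places is not stated.

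Hmox1 (chromosome 8, 75093621 to 75100589, plus strand), haem oxygenase 1, frees iron from haem and is inducible. It had 432, 200 and 175 in labelled knockout 1 to 3 and 240, 324 and 341 in wild type 1 to 3, so labelled knockout held both the highest value and the 2 lowest. The log2 fold change was -0.27 ± 0.35 (limma adjusted p = 0.636, 95% interval 0.467-fold to 1.48-fold) over all libraries and -0.57 ± 0.19 (limma adjusted p = 0.0614) over the other 4. Macrophages also express Hmox1. Their marker sums, given with Slc40a1, were highest in labelled knockout 1 and wild type 3, which also had the most Hmox1, but without Csf1r wild type 3 was below wild type 2. Their part in these values was not tested.

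Of the regulators, Ireb2 (chromosome 9, 54863789 to 54912530, plus strand) had 782, 1982 and 1640 in labelled knockout 1 to 3 and 1785, 1958 and 932 in wild type 1 to 3. The 2 libraries that stood apart had roughly the same low level and the other 4 a like higher one. The log2 fold change was -0.12 ± 0.42 (limma adjusted p = 0.865, 95% interval 0.465-fold to 1.82-fold) and -0.05 ± 0.13 over the other 4 libraries (limma adjusted p = 0.795). Its sign was positive without labelled knockout 1 (0.28), without wild type 1 (0.01) and without wild type 2 (0.08).

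Epas1 (chromosome 17, 86753700 to 86833410, plus strand) had 1040, 2189 and 1901 in labelled knockout 1 to 3 and 3478, 2974 and 1759 in wild type 1 to 3. Wild type 1 and 2 were the highest, and wild type 3 lay within the labelled knockout range. The means were 1710 ± 598 in labelled knockout and 2737 ± 884 in wild type (SD, n = 3 each), and the log2 fold change of -0.69 ± 0.36 did not pass (limma adjusted p = 0.234, 95% interval 0.346-fold to 1.11-fold). Over the 4 libraries without labelled knockout 1 and wild type 3 Epas1 was lower, at -0.66 ± 0.13, which is 0.634-fold (limma adjusted p = 0.0153). In the pair left out, labelled knockout 1 had 1040 and wild type 3 had 1759. HIF-2α is also a factor of blood vessel lining, and endothelial markers were also lower. All 7 had negative log2 fold changes and 3 fell, beside 3.94% of all genes tested, namely Kdr, Pecam1 (-0.74 ± 0.14, limma adjusted p = 0.029) and Cdh5 (-0.78 ± 0.14, limma adjusted p = 0.0259), the last 2 being adhesion molecules of endothelium. Their summed level was 3070 to 3701 in labelled knockout and 4915 to 6067 in wild type, and none was at 0. Over the 4 libraries in which Epas1 passed, all 7 were called lower, beside 12.1% of all genes tested. Leaving out labelled knockout 3 or any 1 wild type library ended these 3 calls, as leaving out labelled knockout 2 did for Kdr and Pecam1, with limma adjusted p of up to 0.16, and none changed sign. In whole tissue, fewer cells of a type and less RNA per cell cannot be told apart, and the part of the vessels in the Epas1 values was not tested.

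**Figure D3:**
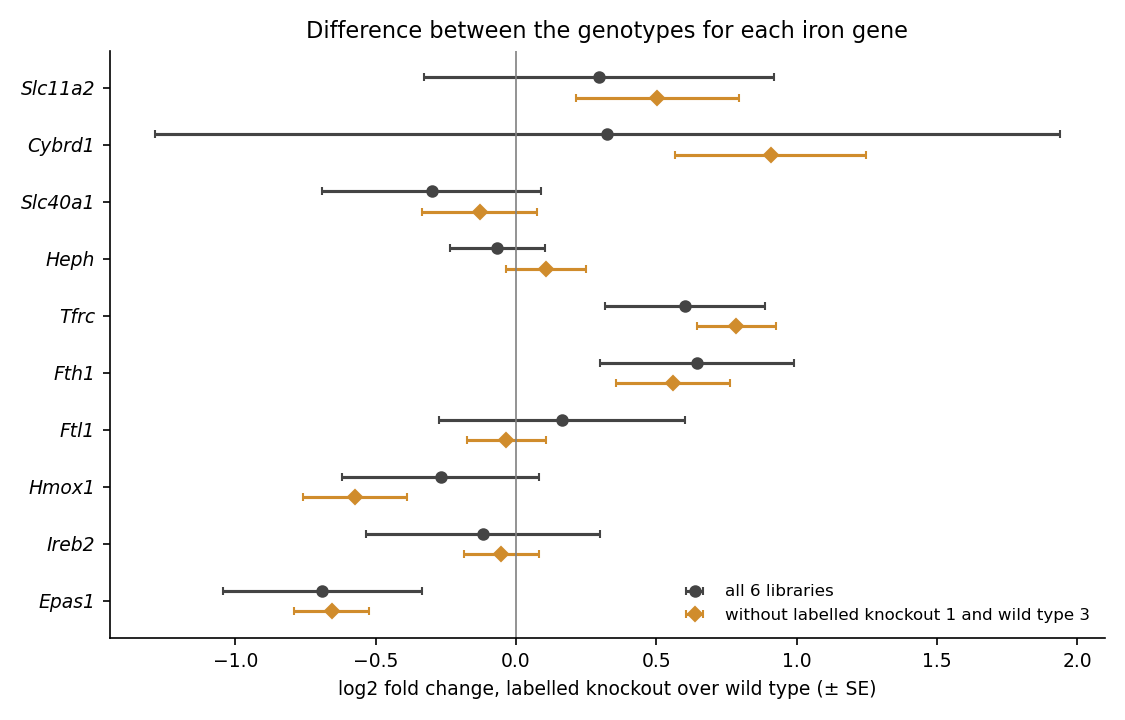
Log2 fold change of labelled knockout over wild type with its standard error for each iron gene, from limma on all 6 libraries (circles) and on the 4 libraries without labelled knockout 1 and wild type 3 (diamonds). Tfrc at 0.79 and Epas1 at -0.66 passed in the 4 libraries, and no gene passed in all 6.

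The 2 members that passed over 4 libraries have to be read against how many genes did so. In that fit 3762 of 14232 genes passed, which is 26.4%, beside 2 of the 10 members. With all 6 libraries and a term for the pair that stood apart, an alternative added after the data were seen, 24.4% of the genes tested passed, and 3 of the 10 members did. They were Tfrc (0.60 ± 0.16, limma adjusted p = 0.036), Fth1 (0.65 ± 0.17, limma adjusted p = 0.0363) and Epas1 (-0.69 ± 0.13, limma adjusted p = 0.0117). With so few members, neither count is a result about iron genes as a group. Markers of the gut's length also moved with genotype over the 4 libraries. Of 7 proximal markers 5 were higher and none lower, beside 14.3% of all genes called higher, namely Ada (3.69), S100g (0.95), Pdx1 (0.83), Fabp1 (0.62) and Gata4 (0.48, log2 fold changes). Of 7 enterocyte markers 4 were higher and 1 lower. Their part in the Tfrc, Fth1 and Epas1 values was not tested. In each of these 3 genes, labelled knockout 1 and wild type 3 differed in the same direction as the other libraries of the genotypes. Passing with the term for the pair favours such agreement. The 3 genes were picked by passing with it, so the agreement is no further support.

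Divided by transcript length, the order of the members was much alike in the genotypes. Levels are normalised counts per kilobase of the longest principal transcript, as mean ± SD of 3 libraries. In labelled knockout, Fth1 had 84129 ± 20715 per kilobase and Ftl1 37241 ± 22897, and in wild type they had 55124 ± 19618 and 30780 ± 10724, with overlapping libraries in each genotype. Their order depended on the length: by all annotated exons Fth1 had 22530 and Ftl1 26902 in labelled knockout, and Fth1 had 14762 and Ftl1 22235 in wild type. Slc11a2 followed with 4305 ± 2471 in labelled knockout and 3356 ± 1958 in wild type, below all ferritin values, and then Slc40a1 with 2207 ± 1063 and 2554 ± 626, which overlapped with Slc11a2. Cybrd1 had 1087 ± 937 in labelled knockout and 632 ± 586 in wild type, and Heph 637 ± 103 and 664 ± 74.2. Cybrd1 ranged from 42.0 to 1853 per kilobase in labelled knockout, and so overlapped with its neighbours on either side there. Epas1, Tfrc, Ireb2 and Hmox1 came last, between 171 and 310 on average in labelled knockout and between 178 and 496 in wild type, and neighbours among them overlapped in both genotypes. Tfrc had the lowest mean of the 10 in wild type, at 178 ± 33.5 per kilobase.

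Other genes of iron handling were taken from 7 lists on iron transport, iron regulation, haem synthesis, haem breakdown and transport, extracellular binding, and the HIF and NRF2 pathways. Of their 72 members tested, 13 passed, which is 18.1%, beside 8.79% of all genes tested. The lists were chosen with earlier results known, so this share supports nothing. Over the 4 libraries 26 of 70 passed, which is 37.1%, beside 26.4% of all genes. The number that passed hung on single libraries. Leaving out labelled knockout 1, 2 or 3 gave 22, 10 or 1, and leaving out wild type 1, 2 or 3 gave 3, 2 or 6.

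Of 8 haem synthesis genes tested none passed over all libraries (median log2 fold change -0.14), where 8.79% of all genes did. Over the 4 libraries 1 was higher and 1 lower, where 26.4% of all genes passed. Alas1, the rate-limiting enzyme outside red cells, had 1541, 2808 and 2700 in labelled knockout 1 to 3 and 1326, 945 and 845 in wild type 1 to 3. The groups did not overlap, yet the log2 fold change of 1.15 ± 0.28 missed the threshold (limma adjusted p = 0.0509). It passed at a pseudocount of 5 (limma adjusted p = 0.0498), without labelled knockout 1, at 1.43 ± 0.20 (limma adjusted p = 0.01), and over the 4 libraries, at 1.30 ± 0.17 (limma adjusted p = 0.00389). It did not pass under scaling by library totals (limma adjusted p = 0.101), with a replicate block (0.141) or without the intensity trend (0.064). Nor did it pass when any other single library was left out (limma adjusted p of 0.0979 to 0.202). Its sign stayed positive throughout. Ppox was the one lower over the 4 libraries (-0.47, limma adjusted p = 0.043). Alad, the next enzyme, had 0.56 ± 0.29 (limma adjusted p = 0.231). Of 10 haem breakdown and transport genes none passed over all libraries (median -0.05), and the most abundant, Blvrb, a biliverdin reductase, and Abcg2, a porphyrin exporter, had 0.27 ± 0.21 and -0.28 ± 0.36 (limma adjusted p = 0.43 and 0.625). Over the 4 libraries Abcg2 was lower (-0.49, limma adjusted p = 0.0375) and Abcb10, a mitochondrial transporter, higher (0.55, limma adjusted p = 0.0287). These lists are too small to set such counts against the share of all genes.

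Other iron transport and regulation genes passed in 1 of 12 and 2 of 10 cases, beside 8.79% of all genes tested. Of the 12 transport genes 1 rose, Slc25a28, the mitochondrial iron importer mitoferrin 2 (0.88 ± 0.17, limma adjusted p = 0.0317), and none fell (median 0.17). Under scaling by library totals it did not pass (limma adjusted p = 0.0741). Of the same genes 2 were higher and 2 lower over the 4 libraries, where 14.3% of all genes were higher and 12.1% lower. Of 10 regulation genes tested 1 rose and 1 fell (median 0.12). Over the 4 libraries 1 of 9 was higher and 2 were lower, beside the same shares of all genes. Both lists are too small to set such counts against those shares. Fam132b, the gene of erythroferrone, a hormone known in mice for lowering hepcidin, had 246, 214 and 221 in labelled knockout 1 to 3 and 94, 75 and 86 in wild type 1 to 3, without overlap, and rose (1.41 ± 0.16, limma adjusted p = 0.0109). Smad7, an inhibitor of BMP signalling to hepcidin in liver, fell by 0.74 on the log2 scale (SE 0.17, limma adjusted p = 0.0479), and did not pass without the filter (limma adjusted p = 0.058) or without the intensity trend (limma adjusted p = 0.0619). Hamp, encoding hepcidin itself, was at 2 or less in every library.

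The proteins that bind iron or haem outside cells and the HIF pathway held most of the calls. Of all genes tested 4.85% were higher and 3.94% lower, and over the 4 libraries 14.3% were higher and 12.1% lower. These lists too were chosen with earlier results known, so their counts support nothing. Of 6 extracellular binding genes 3 rose and none fell (median 1.23): Hp, encoding haptoglobin (6.01 ± 0.57, limma adjusted p = 0.00731), Lcn2, the siderophore-binding lipocalin 2 (2.57 ± 0.53, limma adjusted p = 0.0353), and Ltf, lactoferrin (2.13 ± 0.34, limma adjusted p = 0.0204). Hp had 833, 192 and 668 in labelled knockout 1 to 3 and 8, 8 and 4 in wild type 1 to 3, so low in wild type that its fold change depends on the pseudocount. It met the filter of 10 in 3 libraries only through the labelled knockout libraries, and missed it whenever 1 of them was left out. Hp was thus tested only because it was high there, and its call and its place in these counts support nothing. Lcn2 had 568, 168 and 237 in labelled knockout 1 to 3 and 33, 36 and 85 in wild type 1 to 3. The transferrin gene Trf, on the same list, had 0.33 ± 0.15 and did not pass (limma adjusted p = 0.186). Of 15 HIF pathway genes 5 rose and 1 fell (median 0.46), and over the 4 libraries 7 were higher and 2 lower. Hif1a, the paralogue of Epas1, had 654, 871 and 783 in labelled knockout 1 to 3 and 388, 373 and 410 in wild type 1 to 3, and its log2 fold change was 0.97 ± 0.15, a rise (limma adjusted p = 0.02). The HIF targets Slc2a1 (1.93 ± 0.18, limma adjusted p = 0.00731), Car9 (2.36 ± 0.36, limma adjusted p = 0.0193) and Egln3 (1.20 ± 0.20, limma adjusted p = 0.0223) rose too. Not all targets went that way. Vegfa, the vascular growth factor and the most abundant gene of the list, had 2322, 3434 and 2515 in labelled knockout 1 to 3 and 5639, 6332 and 3635 in wild type 1 to 3, without overlap. Its log2 fold change of -0.90 ± 0.26 did not pass (limma adjusted p = 0.0711), but it did over the 4 libraries, at -1.02 ± 0.17 (limma adjusted p = 0.00785). Ndrg1 had -0.30 ± 0.29 (limma adjusted p = 0.513). Hif3a, a further family member, fell by 1.79 on the log2 scale (SE 0.28, limma adjusted p = 0.02). In the NRF2 list, a pathway that also drives Hmox1 and the ferritin genes, 1 of 11 genes rose (median 0.27; over the 4 libraries 3 were higher and 1 lower), Gsr, encoding glutathione reductase (1.41 ± 0.18, limma adjusted p = 0.0134). The sign of these list genes stayed the same when 1 library was left out, but leaving out labelled knockout 3, or wild type 2, ended the calls of Car9, Egln3, Hif1a, Hif3a, Lcn2, Ltf, Gsr, Fam132b, Slc25a28 and Smad7. Leaving out wild type 1 ended the same calls other than that of Fam132b. Leaving out wild type 3 ended those of Car9, Egln3, Hif1a, Hif3a, Slc25a28 and Smad7, and leaving out labelled knockout 2 those of Slc25a28 and Smad7. Slc2a1 passed in each of these fits. Each of these 11 genes passed with the same sign over the 4 libraries.

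**Figure D4:**
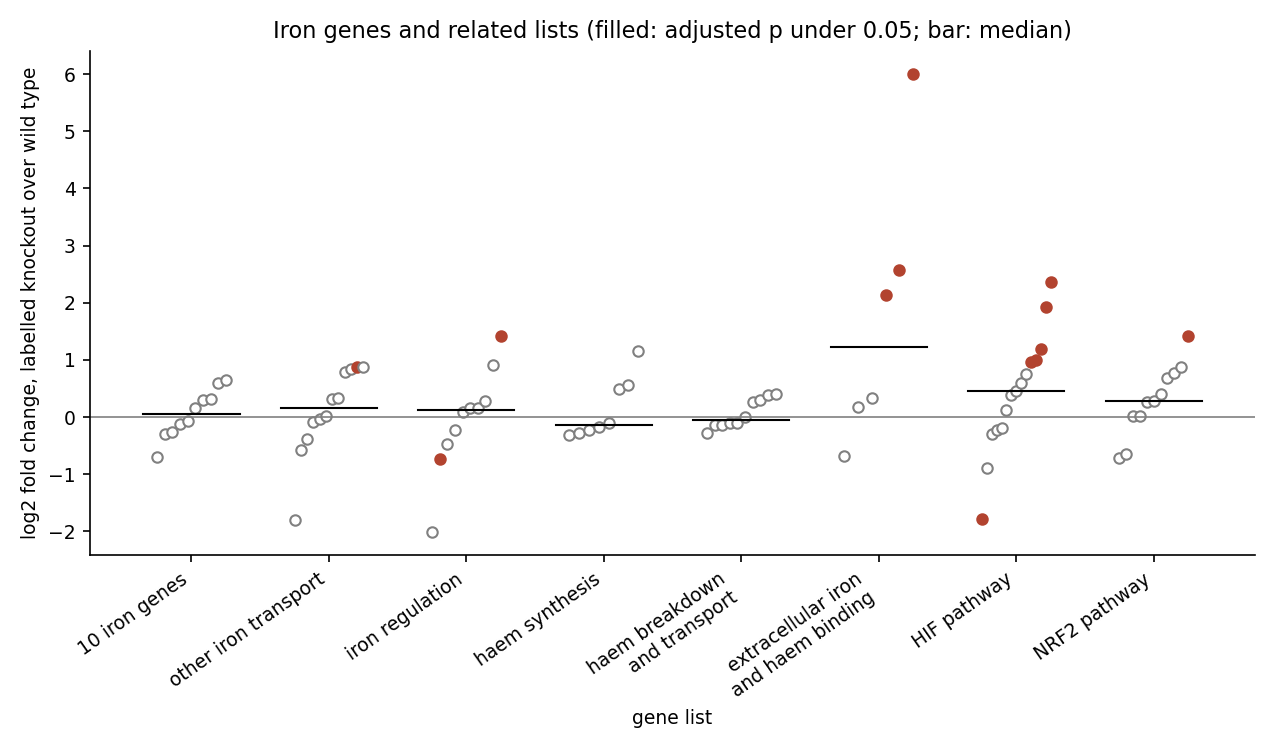
Log2 fold change of labelled knockout over wild type for the 10 iron genes and for each tested gene of 7 related lists, with a bar at the list's median and filled points for limma adjusted p under 0.05. The iron genes all lie between -0.69 and 0.65 with none filled, and the filled points lie mainly among extracellular binding and HIF pathway genes.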

How the data were processed

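Per the submitters' processing notes, the authors used TopHat2 2.1.0, HTSeq 0.6.0, DESeq2 and the build mm10. No annotation, strandedness or handling of multi-mapped reads is stated there. One targeted gene is not reported here. The deposited values have the unit score, with 1 whole number per symbol and library. They look like counts that were scaled and then rounded, and are called normalised counts here. Depth per gene is therefore unknown and no counting interval is given. limma 3.58.1 in R 4.3.3 was run on log2(normalised count + 1) using an intensity trend and genotype as the only term, for the 14686 genes that reached 10 in 3 or more libraries. The p-values are two-sided and Benjamini-Hochberg adjusted over all of them, with a threshold of 0.05. The pseudocount shrinks the fold changes of low genes. The fit was tested on simulated data with independent noise in each library. That simulation did not include the shared deviation of labelled knockout 1 and wild type 3. The 95% intervals use the moderated standard errors.

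The members, the 7 related lists and the 9 marker lists (proximal intestine, ileum, enterocyte, erythroid, macrophage, endothelium, liver, pancreas, smooth muscle) were chosen with earlier results of these data known. All 10 members are named, and of other lists those that passed (at most 4 in each direction), or the 2 most abundant. Others named were chosen after their values were seen (Gata4, S100g, Otc, Pdx1, Onecut2, Alb, Hamp, Trf, Ada, Adgre1, Csf1r, Kdr, Fgf15, Fabp6, Slc51b, Lct, Cdh17, Vil1, Epcam, Ppox, Abcb10, Vegfa, Ndrg1 and Gm5475). Coordinates and sites are from GENCODE M21, GRCm38, the assembly mm10 names. Levels per kilobase use the longest protein-coding APPRIS principal transcript of support level 1, a rule chosen after the values were seen.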

Additional observations from a re-analysis of the deposited data

How the results depend on the processing

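The count of genes called, 1291 with all libraries, moved to 64 with a replicate block, 2847 at a threshold of 0.10, 3762 without labelled knockout 1 and wild type 3, 3590 with a term for those libraries (added after seeing the data), and between 28 and 2998 when 1 library was left out. Of the 10 iron genes, 2, 3 and at most 1 passed without both libraries, with the term, and when 1 library was left out (0 to 1), and none in the other alternatives, which changed scaling, filter, pseudocount, trend, threshold and block. Of the genes on the 7 related lists 13 passed, against 1 with a replicate block, 26 without both libraries, 21 with the term and 1 to 22 when 1 library was left out. The deviations of same-numbered libraries from their genotype means had correlations of -0.373, 0.302 and -0.161. Those of labelled knockout 1 and wild type 3, the pair that stood apart, had 0.412. With 3 libraries a genotype and that pair among them, these values cannot settle whether the numbers pair the libraries. Signs turned for Ftl1 under scaling by library totals (-0.009) and without both libraries (-0.034), and for Heph without both (0.11). When 1 library was left out, log2 fold changes ran from -0.13 to 0.92 for Slc11a2, -0.84 to 2.07 for Cybrd1, -0.652 to 0.093 for Slc40a1, -0.194 to 0.022 for Heph, -0.30 to 0.43 for Ftl1 and -0.45 to 0.28 for Ireb2, and kept their sign for Tfrc, Fth1, Hmox1 and Epas1. The cause of these changes was not tested. With 2 or 3 libraries a genotype, small differences in these genes could not be detected. For members with wide intervals, such as Cybrd1 (95% interval 0.0891-fold to 17.6-fold over all libraries), large ones could not be either.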
